A study of Mus musculus with 21 samples.

Results

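The 10 serotonin receptor genes below were followed in primary cortical neurons of the mouse, cultured from newborn wildtype (WT) pups or from pups carrying human tau with the P301S substitution, which a prion promoter drives (Tau). The members were taken by symbol, as the rows named Htr1a, Htr1b, Htr2a, Htr2b, Htr2c, Htr3a, Htr5a, Htr5b, Htr6 and Htr7, and all 10 were present in each of the 4 tables, which together list 22040 genes, 19399 of them in every table. The cultures fell into 4 groups: 5 of Tau neurons with the vehicle DMSO, 5 of Tau neurons with AdipoRon, 5 of WT neurons with DMSO and 6 of WT neurons with AdipoRon, a small-molecule agonist of the adiponectin receptors given at 10 µM for 24 h before RNA was taken. All 21 had received 1 µM AraC, which kills dividing glia. The Tau neurons had in addition been seeded with 3 µg/mL of pre-formed tau fibrils on day 7 and kept for 18 days. For the WT neurons the study's text conflicts. Its methods describe seeding of transgenic neurons alone, while its results place both genotypes at 18 days after seeding. Whether the WT neurons were seeded is thus unsettled, and if they were not, genotype and fibrils cannot be told apart.

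Serotonin acts through a family of receptors that split by the signal they send. The Htr1 and Htr5 receptors couple to Gi/o proteins, which lower cyclic AMP and open inwardly rectifying potassium channels. The Htr2 receptors couple to Gq and phospholipase C beta, which raises intracellular calcium. Htr6 and Htr7 couple to Gs and raise cyclic AMP, and Htr3a forms a cation channel that serotonin opens directly. In cortex the fibres that release serotonin come from the raphe nuclei of the brainstem, which dissection of cortex is meant to leave out. Whether serotonin reached the receptors in these cultures was not measured.

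Each table gives 1 expression level per gene, the authors' mean in log2 CPM, read counts scaled to a common library total, over the cultures of 2 groups. The tables thus describe 4 pools: DMSO (10 cultures, both genotypes), AdipoRon (11, both genotypes), Tau (10, both treatments) and WT (11, both treatments). The AdipoRon pool was compared with the DMSO pool and the Tau pool with the WT pool, the question being how the receptors stood after the drug and with tau pathology. The pools of each pair share no culture, but the 2 comparisons reuse the same 21 cultures. The study states for its experiments in general that each drug treatment used samples of the same animals, so the DMSO and AdipoRon pools share pups to an extent the labels do not give, and the pooled levels cannot be paired. How the tables were normalized is not given and they may have been scaled separately. A difference below is therefore in log2 after subtracting the median over all genes, except where it is given in CPM, which was not centred. No value per culture was used, so there is no replicate error and no test: differences are described as higher or lower, and called when past 1.5-fold. Depth per culture is unknown from these tables.

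The stretches upstream of Htr2a and Htr2c are shown first because these 2 Gq receptors lay lower together in the AdipoRon pool, with Htr1a, whose difference stayed within 1.5-fold, for contrast. The sequences are RefSeq's, from build GRCm38.p6, and end at the base before the annotated start of the gene. Htr1a lies at chr13:105443443-105443692, plus strand, Htr2a at chr14:74640624-74640873, plus strand, and Htr2c at chrX:146962263-146962463, plus strand. Capitals mark the motif matches.
Htr2a: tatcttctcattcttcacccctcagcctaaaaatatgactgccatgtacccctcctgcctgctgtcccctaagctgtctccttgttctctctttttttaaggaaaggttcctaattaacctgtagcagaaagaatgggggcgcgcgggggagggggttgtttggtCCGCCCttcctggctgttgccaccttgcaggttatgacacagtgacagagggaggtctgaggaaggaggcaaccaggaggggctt
Htr2c: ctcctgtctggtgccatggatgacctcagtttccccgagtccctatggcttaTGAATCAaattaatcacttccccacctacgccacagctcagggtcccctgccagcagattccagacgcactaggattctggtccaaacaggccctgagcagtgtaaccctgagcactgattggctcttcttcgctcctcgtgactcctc
Htr1a: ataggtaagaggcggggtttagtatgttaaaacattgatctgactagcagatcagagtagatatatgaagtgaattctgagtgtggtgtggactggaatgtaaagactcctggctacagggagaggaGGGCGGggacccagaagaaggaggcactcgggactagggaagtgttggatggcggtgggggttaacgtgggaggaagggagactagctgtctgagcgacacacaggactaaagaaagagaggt
In windows of the 250 bases before each transcript start, 5 motifs were sought on both strands: the cyclic AMP response element (CRE) TGACGTCA, its core TGACG, which every full CRE also holds, the AP-1 site TGANTCA, the E-box CACGTG and the GC box GGGCGG. Htr2a and Htr1a each held 1 GC box, on the minus strand in Htr2a, and Htr2c held 1 AP-1 match, while none of the 3 held a CRE, its core or an E-box. The last 49 bases of the Htr2c window fall inside the gene as annotated and are not printed. Over the 32851 windows of this length in the RefSeq table, 32.7% held a GC box, 6.75% an AP-1 match, 6.02% an E-box, 17.8% the CRE core and 1.55% the full CRE. Of the 10 receptors 8 had a window in that table. The windows of Htr2a and Htr2c shared no motif, and these matches are descriptions of letters only.

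Levels between genes were compared per length, as log2 CPM per kb of exon, averaged over the 4 tables. Htr3a was the highest at 1.73, followed by Htr5a at 0.99, Htr2b at 0.84 and Htr1a at 0.52. Htr2b overlaps a gene of much higher level, Psmd1, and the part of Psmd1 reads in its place was not tested. Htr2a stood at -0.055, Htr7 at -0.36, Htr6 at -0.41, Htr5b at -0.67 and Htr2c at -0.71. The Gi/o autoreceptor and heteroreceptor gene Htr1b was the lowest at -1.56. Htr3a was first and Htr1b last in each of the 4 tables. Htr3a ranged from 1.43 to 2.00 over the tables and Htr5a from 0.54 to 1.36, so their ranges did not meet. The ranges of Htr2c (-1.33 to -0.18) and Htr1b (-1.79 to -1.34) did not meet either, by a narrow margin, while all other neighbours in this order overlapped. The place of Htr2c rested on its length: with the longest transcript in place of all exons it stood at 0.22, the fifth place.

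**Figure D1:**
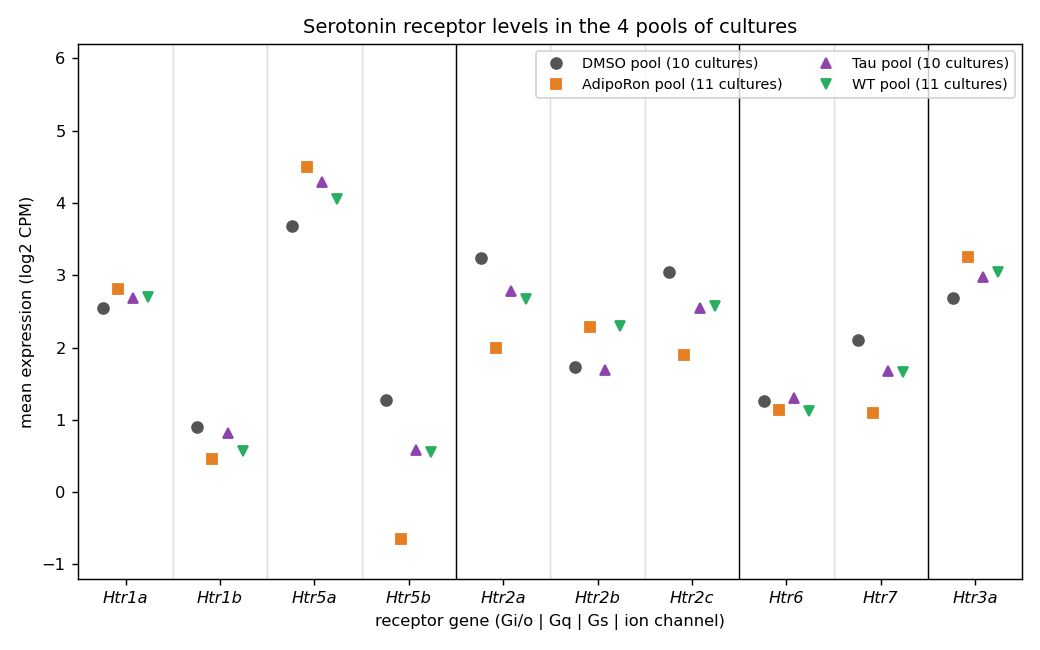
Mean expression (log2 CPM, vertical axis) of the 10 receptor genes, ordered by coupling class with black lines between classes, in the DMSO, AdipoRon, Tau and WT pools. Points are the authors' means and carry no error; genes of different length should not be compared by height. Htr5b, Htr2a, Htr2c and Htr7 sit lowest in the AdipoRon pool and Htr5a sits highest there.

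AdipoRon went with lower levels of Htr5b, Htr2a, Htr2c and Htr7 and a higher level of Htr5a. Of the 10 receptors 4 were called lower and 1 higher, against a background of 5.23% of 19693 genes lower and 2.65% higher. The median over the receptors was -0.31, where the median over all genes is 0 by construction. Without replicate values these counts describe the pools and do not test them.

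Among the Gi/o receptors the 2 members of the Htr5 pair lay on opposite sides. Htr5b (chr1:121509758-121529312) stood at 1.27 log2 CPM in the DMSO pool and -0.64 in the AdipoRon pool, with 0.58 in the Tau pool and 0.56 in the WT pool. In linear terms this was 2.41 CPM against 0.640 CPM, a difference of -1.94, or 3.83-fold lower with AdipoRon. Only 67 genes of 19693 had a lower difference. Htr5a (chr5:27841716-27855086) went the other way, at 3.68 in the DMSO pool and 4.50 in the AdipoRon pool, with 4.29 in the Tau pool and 4.05 in the WT pool. It was 1.73-fold higher with AdipoRon (12.8 against 22.6 CPM), a difference of 0.79 that 239 genes exceeded.

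The other Gi/o receptors were not called. Htr1a (chr13:105443693-105448133), the receptor that restrains firing in many cortical and hippocampal neurons, stood at 2.54, 2.81, 2.69 and 2.70 in the DMSO, AdipoRon, Tau and WT pools, a difference of 0.24 with AdipoRon. Htr1b (chr9:81628291-81633832), which on axon terminals restrains transmitter release, stood at 0.91, 0.45, 0.81 and 0.57 in the same order, a difference of -0.48. Htr1b shares 897 exonic bases, 18.9% of its exons, with D430036J16Rik on the opposite strand. Whether counting used strand is not stated, and that gene lay lower too, at -1.16 in the DMSO pool and -2.12 in the AdipoRon pool. The median of the Gi/o class was -0.12, which joins a pair near the middle to 2 members far apart.

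The Gq class had the lowest median, -1.17. Htr2a (chr14:74640874-74706859), the receptor through which classical hallucinogens act and which is found on cortical pyramidal neurons, stood at 3.23 in the DMSO pool and 2.00 in the AdipoRon pool, with 2.78 in the Tau pool and 2.67 in the WT pool. It was 2.40-fold lower with AdipoRon, at 3.99 against 9.40 CPM. Htr2c (chrX:146962464-147197277), known for its RNA editing and its part in appetite, stood at 3.04 and 1.89, with 2.55 and 2.57 in the Tau and WT pools, and was 2.26-fold lower with AdipoRon. Only 203 and 250 genes had a lower difference than Htr2a and Htr2c. Htr2b (chr1:86097546-86116231), better known from heart valve and gut, lay on the other side of even at 1.73 and 2.29, a difference of 0.54 that missed the call. Htr2b shares 252 exonic bases, 11.3% of its exons, with Psmd1, a proteasome subunit gene on the opposite strand whose difference was -0.010. Psmd1 stood far higher, at 7.41 log2 CPM in the DMSO pool and 7.42 in the AdipoRon pool. Whether Psmd1 reads entered the Htr2b level was not tested.

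The Gs pair differed in size. Htr7 (chr19:35958415-36058133) stood at 2.11 in the DMSO pool and 1.09 in the AdipoRon pool, with 1.68 in the Tau pool and 1.67 in the WT pool, 2.05-fold lower with AdipoRon. Htr6 (chr4:139059706-139075570), a receptor found mostly in brain and on primary cilia of neurons, stood at 1.26, 1.14, 1.30 and 1.12 in the 4 pools, a difference of -0.14. The channel subunit gene Htr3a (chr9:48899213-48911152) stood at 2.68 in the DMSO pool and 3.25 in the AdipoRon pool, with 2.98 and 3.04 in the Tau and WT pools. It was 1.46-fold higher with AdipoRon and missed the call.

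Shares of called genes depend on level, so the receptors were also read beside genes of like level. Between 2 and 4 log2 CPM, where Htr2a and Htr2c lie, 5.66% of genes were called lower with AdipoRon. Between 0 and 2, where Htr5b and Htr7 lie, the share was 7.22%. Above 4, where Htr5a lies near the border with a mean of 4.13, 1.38% were called higher. Between 2 and 4 the share called higher was 3.22%.

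**Figure D2:**
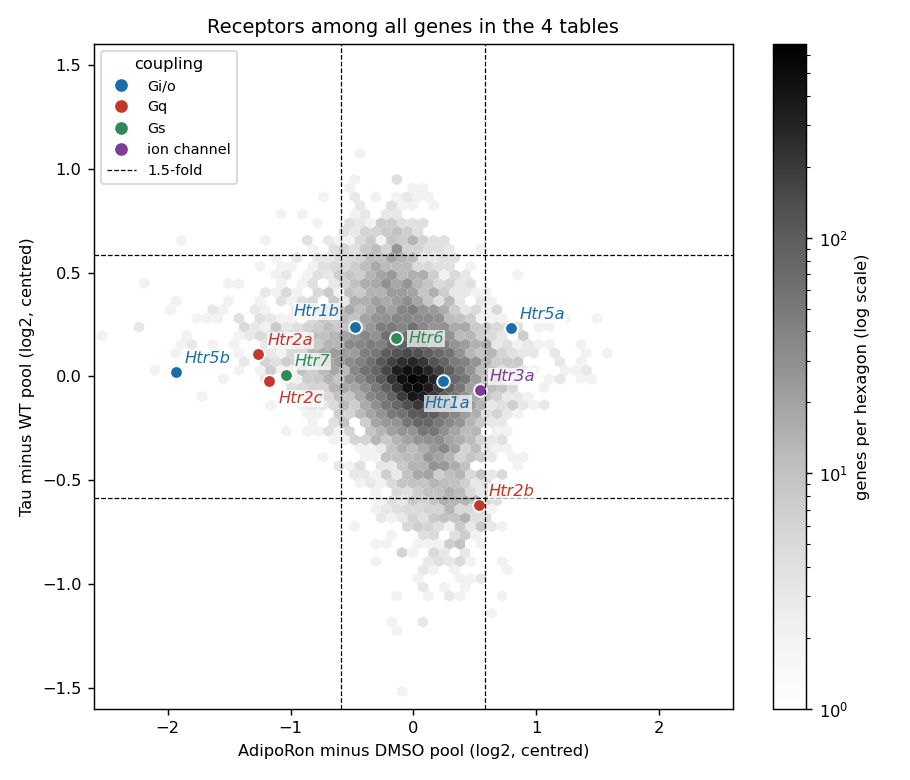
Difference of the AdipoRon from the DMSO pool (horizontal axis, log2, centred on the median gene) against that of the Tau from the WT pool (vertical axis, log2, centred) for the genes in all 4 tables, as grey hexagons on a log colour scale, with the receptors as points coloured by coupling. Dashed lines mark 1.5-fold, and genes beyond the axes are not drawn. Htr5b, Htr2a, Htr2c and Htr7 lie left of the lower line near a vertical value of 0, Htr5a right of the upper line, and Htr2b below the lower horizontal line.

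The Tau and WT pools differed little in most receptors. With both treatments pooled, 1 of the 10 was called lower and 0 higher, against 2.64% of 19890 genes lower and 2.53% higher, and the receptors' median was 0.013. The 4 receptors that lay lower with AdipoRon were near even here: Htr5b 0.020, Htr2a 0.11, Htr2c -0.023 and Htr7 0.0050. Htr5a and Htr1b stood at 0.23 and 0.24, Htr6 at 0.18, Htr1a at -0.021 and Htr3a at -0.066.

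The called receptor was Htr2b, at 1.68 log2 CPM in the Tau pool and 2.30 in the WT pool (3.21 against 4.93 CPM), 1.54-fold lower in Tau, with 442 genes lower still. Its mean level was 2.00, at the border of 2 bands in which 7.41% (from 0 to 2) and 4.68% (from 2 to 4) of genes were called lower in Tau. Microglial markers differed the same way. Of 7 markers 6 were called lower in Tau, with a median of -1.05, among them the complement genes C1qa at -1.05 and C1qb at -0.96, and their summed level was 198 CPM in the Tau pool and 399 CPM in the WT pool. With AdipoRon that sum was 325 CPM, against 283 CPM with DMSO, but 0 of the 7 were called and the markers split, 4 above 0 and 3 below. C1qa and C1qb, which make up much of the sum, differed by 0.27 and 0.42, and Cx3cr1 by -0.49. Psmd1, the gene overlapping Htr2b, differed by -0.030 between genotypes. Oligodendrocyte lineage markers lay lower in Tau too, with 4 of 8 called lower, 1 called higher and a median of -0.64. The part of microglial RNA, of oligodendrocyte lineage RNA or of the overlap in the Htr2b value was not tested. In such bulk cultures fewer cells of a type and less RNA per cell cannot be told apart.

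**Figure D3:**
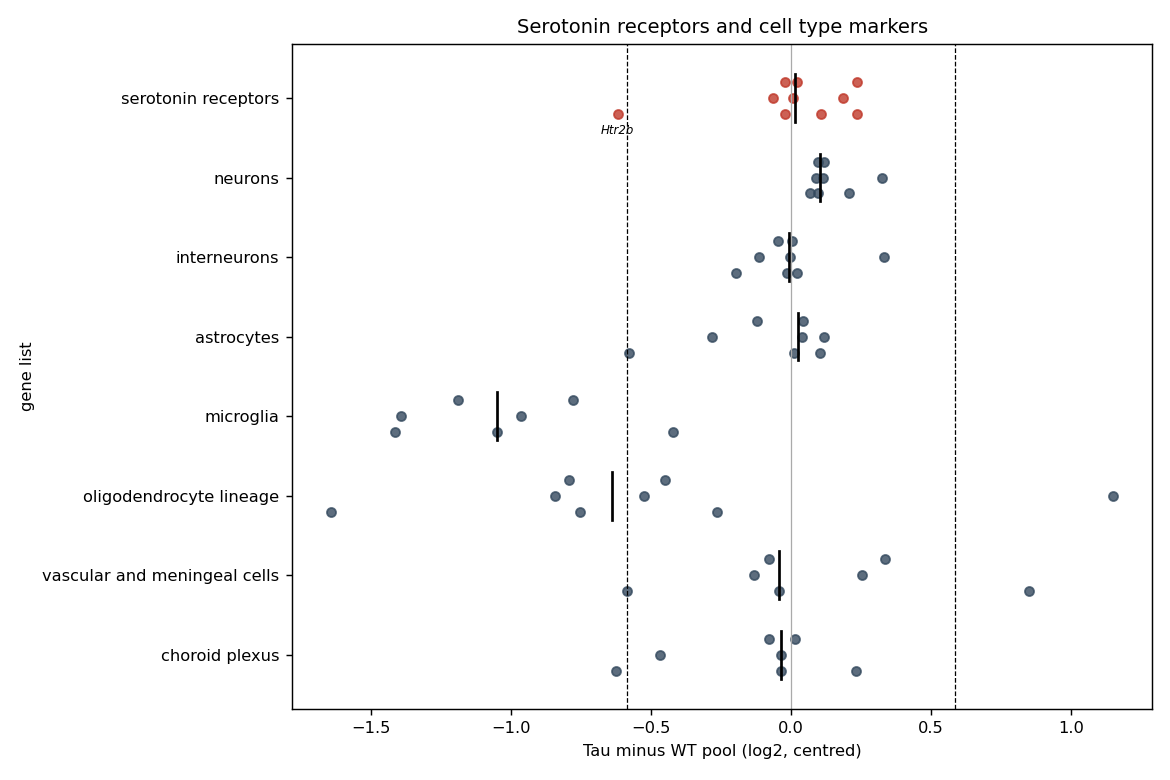
Difference of the Tau from the WT pool (horizontal axis, log2, centred on the median gene) for the receptors (red) and the genes of 7 cell type marker lists (dark points), with black bars for each list's median and dashed lines at 1.5-fold. The receptors centre on 0.013 with Htr2b apart, while the microglial markers centre on -1.05 and all 7 lie left of 0. The oligodendrocyte lineage markers centre on -0.64, with 7 of 8 left of 0.

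The pools also bound the levels within the 4 groups, since no group's CPM can be below 0. This reading was chosen after the values were seen. It takes each pooled level, without centring, as the arithmetic mean CPM of its cultures. For Htr5b the bounds separated the treatments within each genotype. In Tau neurons its level lay between 1.58 and 2.99 CPM with DMSO and at no more than 1.41 CPM with AdipoRon. In WT neurons it lay between 1.83 and 3.24 CPM with DMSO and at no more than 1.17 CPM with AdipoRon. For the other 9 receptors the bounds overlapped within each genotype. Htr2a, for instance, lay between 4.97 and 13.7 CPM in Tau neurons with DMSO and between 0 and 8.78 CPM with AdipoRon, so its direction within a genotype was not settled. Whether a drug difference was larger in Tau or in WT neurons cannot be read from these pools for any receptor.

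Another contrast, also chosen after the values were seen, follows from the pools directly. The Tau and DMSO pools share the Tau DMSO cultures, and the difference between them gives Tau neurons with AdipoRon against WT neurons with DMSO. It was taken in CPM without centring, and the median difference of these pools over genes was 0.0077 on the log2 scale. In this contrast small values may reflect scaling. Htr2a was 5.06 CPM lower there, Htr2c 4.80 CPM lower, Htr7 2.24 CPM lower and Htr5b 1.83 CPM lower. Htr5a was 13.5 CPM higher, Htr3a 2.87 CPM higher and Htr1a 1.21 CPM higher. The remaining 3 were within 0.239 CPM, with Htr1b at -0.239, Htr2b at -0.189 and Htr6 at 0.138. This contrast reuses cultures of both comparisons above and is no separate support for either.

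The genes around the receptors were read from 8 lists, 50 genes in all, of which 47 had a difference. With AdipoRon 8 of the 47 were called lower and 1 higher, and their median was -0.031; over all genes 5.23% were called lower and 2.65% higher, so the higher count is near the background. The counts within single lists rest on few genes and are read against the same shares. The lists were chosen with earlier results of these data known, so their counts describe the genes and test nothing. The G proteins did not stand out: 0 of 5 Gi/o, 0 of 3 Gq and 0 of 2 Gs genes were called. Gnao1 and Gnai2, the Gi/o subunits of highest level, differed by -0.20 and 0.094, Gnaq and Gna11 by -0.11 and 0.088, and Gnas and Gnal by -0.048 and -0.080. Of the 4 phospholipase C beta genes 0 were called, with Plcb1 at -0.34 and Plcb3 at 0.15. Between Tau and WT 0 of the 47 were called, with a median of 0.062.

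Of the 9 called genes, 7 belong to the effectors and regulators and 2 to the handling of serotonin. Adcy8 and Adcy2, which make cyclic AMP, were 2 of 8 adenylyl cyclases called, at -1.18 and -0.75. Kcnj3, a subunit of the potassium channels that Gi/o receptors open, was 1 of 3 called, at -0.70. Among 14 receptor partners and desensitization genes 4 were called, all lower. Of these, 3 are RGS proteins, which shorten G protein signals: Rgs4 stood at 7.97 log2 CPM in the DMSO pool and 5.79 in the AdipoRon pool, 4.61-fold lower. Rgs8 differed by -1.37 and Rgs2, which favours Gq, by -1.31. S100a10 (p11), an adaptor that brings Htr1b to the cell surface, differed by -1.09; it comes after the 3 largest of its list and was named with its value seen.

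Serotonin's own handling split. Of 10 genes 8 had a difference. Ddc, the decarboxylase that makes serotonin and dopamine, was called higher at 0.82 (-0.03 log2 CPM in the DMSO pool, 0.81 in the AdipoRon pool), a call that was lost at 2-fold and with an offset of 1 CPM. Slc22a3, a low-affinity monoamine transporter, was called lower at -0.75, or 1.68-fold, a call that was lost at 2-fold. Its mean level was -0.70 log2 CPM, so a minimum level of 0 log2 CPM left it out. Among genes below 0 log2 CPM 8.83% were called lower. The markers of serotonergic neurons in this list differed in how they were detected. Tph2, the neuronal enzyme of serotonin synthesis, was in all 4 tables, at 1.32, 1.02, 1.28 and 1.06 log2 CPM in the DMSO, AdipoRon, Tau and WT pools, and the vesicular monoamine transporter Slc18a2 stood at 2.09, 1.84, 2.01 and 1.93. The plasma membrane transporter Slc6a4 was listed in the AdipoRon and Tau tables alone, at -1.86 and -1.39, and Tph1 was in none of the 4. Tph2, Slc18a2 and Slc6a4 were named with their values seen.

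**Figure D4:**
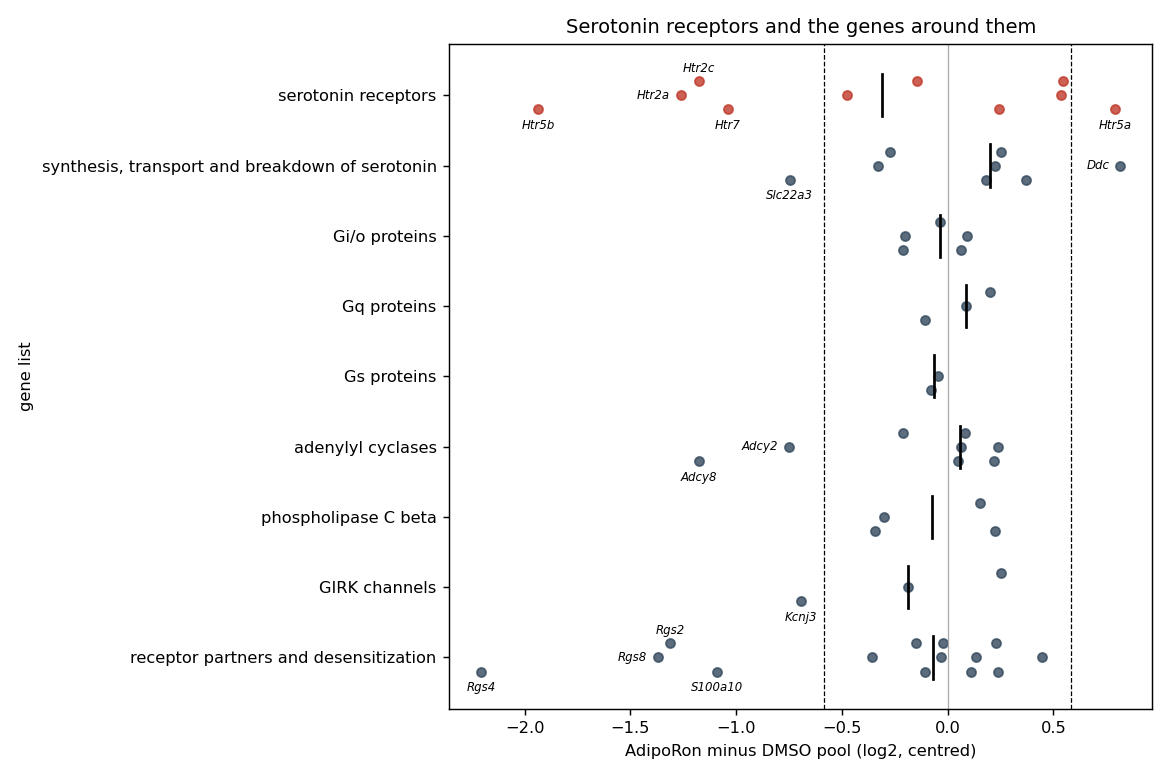
Difference of the AdipoRon from the DMSO pool (horizontal axis, log2, centred on the median gene) for the 10 receptors (red) and the genes of 8 pathway lists (dark points), with a black bar at each list's median and dashed lines at 1.5-fold; genes past a line are named. The receptors centre on -0.31, and the G protein lists stay within the lines while Rgs4, Rgs8, Rgs2 and S100a10 lie left of them.

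The label neuron was checked against marker lists. Neuronal markers were abundant, with Snap25 at 9.97 and Syp at 9.76 log2 CPM over the 4 tables, but so were the astrocyte markers Gfap at 10.87 and Slc1a3 at 9.95, and microglial and oligodendrocyte lineage markers were detected as well, so the receptor levels are those of mixed cultures. With AdipoRon 0 of 8 neuronal markers were called, with a median of -0.16, and 0 of 8 astrocyte markers, with a median of 0.029. Of 8 interneuron markers 3 were called, all lower, where 5.23% of all genes were: Vip was 4.68-fold, Lamp5 4.04-fold and Npy 1.70-fold lower. Htr3a, which in cortex marks the class of interneurons that holds the Vip and Lamp5 cells, was 1.46-fold higher in the same pool. The pan-interneuron genes Gad1, Gad2 and Slc32a1 differed by -0.30, -0.25 and -0.079, and Sst and Pvalb by -0.15 and 0.11. These genes were named with their values seen. Of the oligodendrocyte lineage 1 of 8 was called, Pdgfra, at -0.59, a count too small to set apart from that share. The vascular list had 0 of 7 called, with Col1a2 at -0.20 and Pdgfrb at 0.18. The choroid plexus list, whose epithelium is rich in Htr2c, had 0 of 7 called, with a median of -0.20. In it 5 genes lay below 0 and 2 above. Enpp2 and Clic6, the highest in level of the 7 with a difference, differed by -0.58 and -0.48, and Aqp1 and Kcnj13 by 0.22 and 0.21. Ttr, also on this list, was present in the WT pool alone, at 3.28 log2 CPM, and so had no difference. It was named with its value seen. Enpp2 stood at 6.85 log2 CPM over the 4 tables, far above Clic6 at 0.95. The part of cell makeup in the receptor differences was not tested.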

How the data were processed

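RNA-seq was made from poly(A) RNA of 21 cultures. The authors trimmed the reads, aligned them to mm10 with STAR, quantified them with RSEM and fitted edgeR models, per the study's methods; the deposited tables are instead named for Rsubread, which treats overlapping and multiply mapped reads differently, and which of them made the counts is unsettled. The study's text also names GRCm39, and library normalization, filters, strand and versions are not given in the sources used here. The 4 deposited tables hold, per gene, the authors' mean expression in log2 CPM over 2 groups, which is the column used. Their log2 fold changes, likelihood ratios, p-values, false discovery rates and calls of direction are the authors' own comparisons and were not used; no value per culture was used.

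Each pooled difference is the log2 CPM of 1 table minus that of another, less the median over genes in both (0.0237 for AdipoRon minus DMSO and 0.0021 for Tau minus WT), computed with Python 3.11.15, pandas 2.3.3 and numpy 2.4.6 and tested on simulated data. The fold 1.5 set a call. Mean CPM over all cultures agreed by either pair of tables for 19399 genes (SD 0.00486 on the log2 scale, largest gap 0.0304). Exon lengths came from GENCODE vM39, sequences and positions from RefSeq. Named were all receptors and, per list, up to 3 genes past 1.5-fold with AdipoRon, or else the 2 of highest level among those with a difference. Members and lists were chosen with earlier results of these data known. Of the microglial list, 1 marker is not reported here and was left out of its counts and sums.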

Additional observations from a re-analysis of the deposited data

How the results depend on the processing

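Over 80 alternative values of single receptors, covering centring, a minimum level of 0 log2 CPM, the genes used as the centre and an offset of 1 CPM, 73 moved by less than 0.1 on the log2 scale and 0 changed sign. All 7 that moved did so under the offset, which shrinks low genes: with AdipoRon Htr5b then stood at -1.07 and Htr7 at -0.78. The 5 receptors called with AdipoRon, 4 lower and 1 higher, became 8 at a smaller fold (0.32 on the log2 scale). These were 5 lower and 3 higher, the latter being Htr5a, Htr2b and Htr3a. At 2-fold 4 were called, all lower, and Htr5a was no longer called. The 1 receptor called between Tau and WT, Htr2b, became 0 at 2-fold and 0 with the offset of 1 CPM. Of the 10 places in the level order, 5 were the same with the longest transcript as length, 2 in the DMSO table alone and 5 in the AdipoRon table alone. The 9 called pathway genes became 5 at 2-fold, 14 at the smaller fold, 8 with the minimum level and 7 with the offset; Ddc, the only one called higher, was lost at 2-fold and with the offset. Over all genes the 522 higher and 1030 lower calls with AdipoRon became 123 and 360 at 2-fold, 1848 and 2476 at the smaller fold and 262 and 573 with the offset. The 504 higher and 525 lower calls between Tau and WT became 108 and 404 among genes of at least 0 log2 CPM, 25 and 102 at 2-fold, 1823 and 1318 at the smaller fold and 31 and 223 with the offset. The receptor counts were unchanged under the minimum level and the centring alternatives.

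No paired analysis was possible because the column used holds 1 mean over 2 groups and no value per culture; for the same reason no leave-one-out value exists. The depth behind each level, the spread between cultures and the response within each genotype, except the direction for Htr5b, were not obtained.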

Other observations

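Genes of the oligodendrocyte lineage also differed between genotypes, beside receptors whose median was 0.013. With both treatments pooled, 4 of 8 were called lower in Tau and 1 higher, with a list median of -0.64, against 2.64% and 2.53% of all genes. The lineage transcription factor Sox10 stood at 4.60 log2 CPM in the Tau pool and 6.24 in the WT pool, while the myelin gene Mobp went the other way, at 4.58 and 3.42. Both were named with their values seen. Their summed level with the other 6 markers was 523 CPM in the Tau pool and 822 CPM in the WT pool.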
